A study of Mus musculus with 12 samples.

Results

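The TWEAK receptor and related members of the TNF receptor family were followed in mouse liver as 9 genes taken by symbol from the deposited count table. They are the ligand TWEAK (Tnfsf12), its receptor Fn14 (Tnfrsf12a), and 7 further receptors, Tnfrsf1a, Tnfrsf1b, Ltbr, Fas, Tnfrsf10b, Tnfrsf21 and Tnfrsf19. These are 9 of 55421 genes listed, and all 9 are among the 14076 genes that were high enough to be tested. TNF ligands are cell-surface or secreted proteins that draw their receptors together in the membrane. Most receptors of the family pass the signal to TRAF adaptor proteins and from there to the transcription factor NF-kB, and a subgroup carries a death domain that can start caspase activity and cell death. In liver the family is known for its part in hepatocyte death, in regeneration and in the response of ductular progenitor cells to TWEAK, a ligand whose receptor is low in resting liver and is induced by injury.

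Polyadenylated RNA from whole liver, labelled as mostly hepatocyte, was sequenced in 12 adult male mice on a C57BL/6 background, with 3 mice in each of 4 groups. The mutants express a doxycycline-controlled transgene for a subunit of the transcription factor AP-1, Fra-1 (gene Fosl1) in Fra1hep and Fra-2 (gene Fosl2) in Fra2hep, and the other mice are labelled only as control. Doxycycline was withdrawn at 3 weeks of age in every mouse. The Fra1hep controls, Fra1hep mutants, Fra2hep controls and Fra2hep mutants are all titled as 2 months, and the titles do not say from when. The controls were littermates that shared the cage and the withdrawal. Which promoter drives the transgene was not given in the sources used here. For the 3 Fra2hep mutants the treatment field reads 9 months, in conflict with their titles and with the 2 months of their controls, so in the Fra2hep comparison a difference in age cannot be told apart from the transgene.

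Library totals ran from 16834041 to 20464807 counts. Levels are given as CPM, a gene's counts on a common library size after TMM scaling, which corrects for a few genes taking a large share of a library. Fosl1 was at 0 to 0.05 CPM in the Fra1hep controls and at 9.41, 10.2 and 12.8 CPM in their mutants, in a gene that shares 1163 exon bases with Ccdc85b on the opposite strand. Fosl2 was at 12.2, 48.1 and 16.0 CPM in the Fra2hep controls and at 398, 421 and 421 CPM in their mutants. The library labelled Fra2hep control 2 therefore stood above the other Fra2hep controls for Fosl2, and the library labelled Fra2hep control 1 held Fosl1 at 0.61 CPM. Fra2hep results of the 9 members are given with and without these 2 libraries, each left out in turn. Summed hepatocyte markers (6 of 6 detected, led by albumin) did not overlap between Fra2hep controls (99242 to 122618 CPM) and mutants (52138 to 67218 CPM), although edgeR called 0 of the 6 (3 at an unadjusted p under 0.05, 2 called by DESeq2 and 0 by limma-voom). The sum was carried by the secreted proteins albumin, Apoa1 and Ttr, and the other markers did not share the pattern. In Fra2hep controls and mutants the means of the nuclear factor Hnf4a were 599.6 and 708 CPM, those of the urea cycle enzyme Cps1 were 3486 and 3504 CPM, and those of the tyrosine-degrading enzyme Tat were 1668 and 1592 CPM, with overlapping groups in each. Of the 6 log2 fold changes 4 were negative and 2 positive. In bulk tissue, fewer cells of a type and less RNA per cell cannot be told apart.

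Since the transgenes encode AP-1 subunits, the 250 bases before each RefSeq transcript start (RefSeq, GRCm38.p6) were searched for the AP-1 motif TGANTCA and for the cyclic AMP response element TGACGTCA. Both motifs read the same on either strand, and they cannot match at the same position. An entry was found for 7 of the 9 members, all but Tnfsf12 and Tnfrsf10b. The AP-1 motif matched in 1 of the 7, Fas, at 211 bases before the start, and the cyclic AMP response element in 0 of 7. Over 32851 RefSeq promoters of the same length the shares were 6.75% and 1.55%. The windows of Tnfrsf12a, the member that rose most in Fra1hep, and of Fas are shown 5' to 3' on the strand of the gene, with the AP-1 match in capitals. The Tnfrsf12a window lies on the minus strand at chr17:23677450-23677699, with 19 bases inside an exon of the GENCODE annotation, and the Fas window on the plus strand at chr19:34290409-34290658.
Tnfrsf12a: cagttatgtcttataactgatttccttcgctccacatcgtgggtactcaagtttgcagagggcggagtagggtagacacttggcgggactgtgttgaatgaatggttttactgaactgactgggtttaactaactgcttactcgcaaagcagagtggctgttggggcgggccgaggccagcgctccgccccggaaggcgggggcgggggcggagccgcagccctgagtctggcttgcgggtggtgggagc
Fas: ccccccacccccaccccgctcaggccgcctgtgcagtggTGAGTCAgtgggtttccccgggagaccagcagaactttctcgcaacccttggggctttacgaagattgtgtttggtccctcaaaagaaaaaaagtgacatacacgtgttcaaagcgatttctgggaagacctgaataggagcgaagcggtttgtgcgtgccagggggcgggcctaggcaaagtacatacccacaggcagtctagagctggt
The Tnfrsf12a window holds no capitals because neither motif was found in it. A match is a run of letters and was not tested for binding here.

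Levels of different genes were compared only after division by exon length, as CPM per kb. In Fra1hep controls Ltbr (36.2 ± 3.50 CPM per kb, SD, n = 3) and Tnfrsf1a (30.8 ± 5.11) led the order, and their ranges overlapped. Tnfrsf1b (11.0 ± 1.32), Fas (9.52 ± 0.84) and Tnfsf12 (7.51 ± 1.62) followed, each overlapping its neighbour in the order. Tnfrsf12a ranked 6 of 9, at 3.54 ± 0.84 CPM per kb, and overlapped neither neighbour. Tnfrsf19 (1.71 ± 0.20) and Tnfrsf21 (1.06 ± 0.47) were lower and overlapped each other, and Tnfrsf10b was last at 0.058 ± 0.037.

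Fra2hep controls held nearly the same order, with Tnfrsf1a (31.4 ± 2.20 CPM per kb) and Ltbr (29.6 ± 1.74) overlapping at the top and Tnfrsf10b (0.094 ± 0.059) at the bottom. Tnfrsf21 (2.272 ± 0.116) stood above Tnfrsf19 (1.85 ± 0.30) there and overlapped Tnfrsf12a (2.98 ± 0.98). In both mutant groups Tnfrsf1a stood alone at the top, at 69.4 ± 4.74 CPM per kb in Fra1hep and 58.4 ± 6.69 in Fra2hep. Tnfrsf12a moved up to the third place in Fra1hep mutants, at 21.3 ± 11.9 CPM per kb, clear of Ltbr above (46.4 ± 8.07) and of Tnfrsf1b below (7.95 ± 0.40). In Fra2hep mutants it ranked 5, at 6.31 ± 1.14 CPM per kb, and overlapped its ligand Tnfsf12 at 5.68 ± 0.53.

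**Figure D1:**
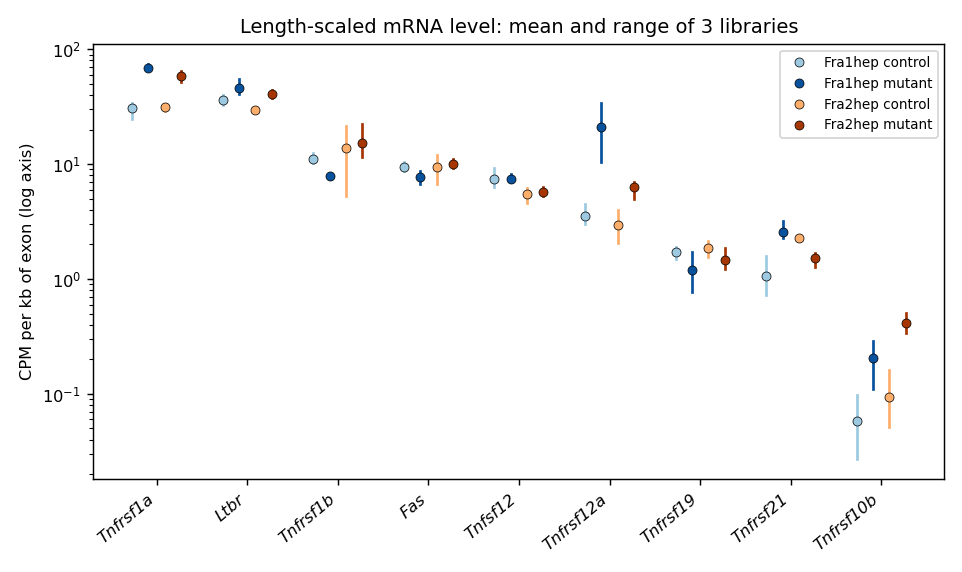
Level of each of the 9 genes in CPM per kb of exon on a log axis, as the mean (point) and range (line) of 3 libraries in each group. Tnfrsf1a and Ltbr lie at the top in all 4 groups, Tnfrsf10b lies at the bottom, and Tnfrsf12a moves from 3.54 to 21.3 CPM per kb between Fra1hep controls and mutants.

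Genes were called changed at a Benjamini-Hochberg adjusted p under 0.05 in edgeR's quasi-likelihood test over all 14076 genes, fitted on the 12 libraries together. The members were chosen with earlier results of these data known, so their counts beside those of all genes do not test enrichment in either strain. In Fra1hep mutants 3 of the 9 members rose, Tnfrsf12a, Tnfrsf1a and Tnfrsf21, where 2.9% of all genes tested were called higher. No member was called lower, where 0.938% of all genes were, while 5 members had an unadjusted p under 0.05, as had 16.3% of all genes. Of 540 genes called in Fra1hep 408 were higher, and without a scaling factor 674 of 776 were (4.79% of all genes higher and 0.725% lower). DESeq2 called 4 members, all higher, against 4.82% of genes called higher, and limma-voom 3, against 2.69%. The median log2 fold change was 0.36 over the 9 members and 0.01 over all genes. In 5 members the 3 Fra1hep mutants all lay above the 3 controls (11.7% of all genes), and in 1, Tnfrsf1b, they all lay below (9.98%).

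In Fra2hep mutants 1 of the 9 members rose, Tnfrsf1a, where 0.845% of all genes were called higher. None was called lower, where 0.22% of all genes were, and 4 members had an unadjusted p under 0.05, as had 11.5% of all genes. DESeq2 called 2 members, both higher, against 2.24% of genes, and limma-voom 1, against 0.803%. The median log2 fold change was 0.13 over the members and -0.01 over all genes. In 4 members the mutants all lay above the controls (9.31% of all genes), and in 1, Tnfrsf21, they all lay below (8.17%). Tnfrsf12a, Tnfrsf1a, Tnfrsf10b and Ltbr, 4 of the 9, had mutants above controls in both strains, which held for 3.5% of all genes.

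**Figure D2:**
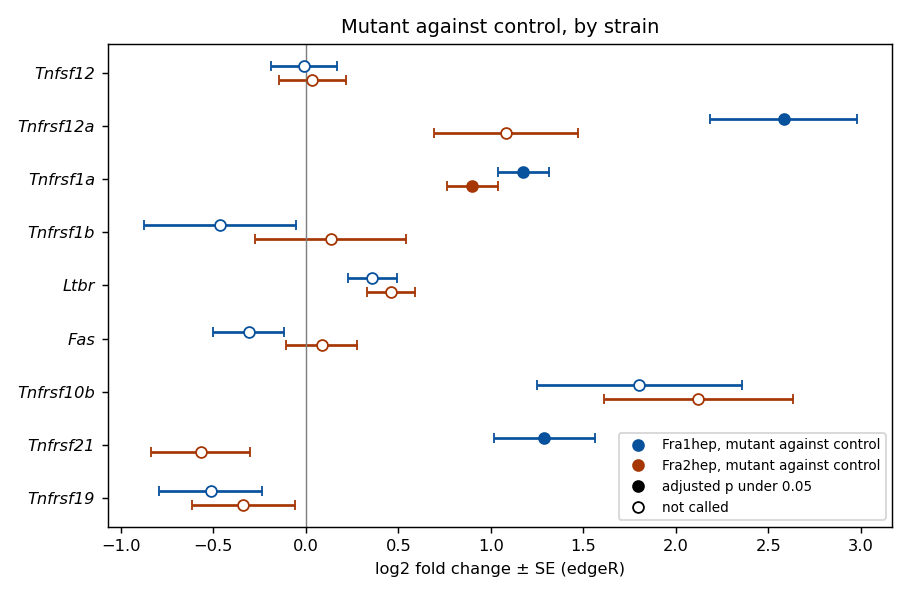
Log2 fold change of mutants against controls with its standard error for the 9 genes, in Fra1hep (blue) and Fra2hep (brown), with filled points for an adjusted p under 0.05. Tnfrsf12a reaches 2.58 in Fra1hep and 1.08 in Fra2hep, Tnfrsf1a is called in both strains, and Tnfrsf21 lies on opposite sides of 0.

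Tnfsf12, the ligand TWEAK (ENSMUSG00000097328.7, GRCm38 chr11:69686250-69695849, minus strand), was called in neither strain. It was at 14.2, 10.4 and 9.58 CPM in Fra1hep controls and at 12.5, 10.5 and 10.7 CPM in their mutants. The Fra2hep controls held 6.96, 8.77 and 9.45 CPM and the mutants 9.52, 8.02 and 8.26 CPM. The groups overlapped within each strain, and the log2 fold changes were -0.01 ± 0.18 (SE) in Fra1hep (adjusted p = 0.983) and 0.03 ± 0.18 in Fra2hep (adjusted p = 0.973). Without Fra2hep control 1 the second value was -0.084 (adjusted p = 0.91), and without control 2 it was 0.066 (adjusted p = 0.981). All 3 Fra2hep controls lay below all 3 Fra1hep controls, as in 4.82% of genes, with a log2 difference of -0.44 ± 0.18 that was not called (adjusted p = 0.866). Tnfsf12 shares 731 exon bases with Tnfsfm13 on the same strand, so reads of these 2 genes may have been divided between them in the deposited counts.

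Tnfrsf12a, the TWEAK receptor Fn14 (ENSMUSG00000023905.15, GRCm38 chr17:23675445-23677468, minus strand), showed the largest Fra1hep rise of the 9. The Fra1hep controls held 5.88, 5.94 and 8.72 CPM, from 90, 121 and 162 counts, and the mutants 37.3, 65.7 and 20.3 CPM, from 682, 1247 and 399 counts. Every mutant lay above every control, and the mutants themselves spread over a 3.24-fold range with mutant 2 highest. The group means were 6.85 ± 1.62 and 41.1 ± 22.9 CPM (SD, n = 3 each). The fitted rise was 5.99-fold, a log2 fold change of 2.58 ± 0.40 (SE, edgeR adjusted p = 0.0039), the 130th largest of the 14076 genes. It kept its call in 12 of 12 fits that each left out 1 library, with log2 values from 2.07 to 2.89 and adjusted p from 0.001 to 0.0314.

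Among the Fra1hep mutants, mutant 3 held the least Tnfrsf12a and the most Fosl1 (12.8 CPM). Their Fosl1 spanned only a 1.36-fold range, beside 3.24-fold for Tnfrsf12a, and a relation of Tnfrsf12a to the transgene level was not tested. Fn14 is also a receptor of ductular and mesenchymal cells, so markers of both were set beside it. The 9 cholangiocyte and progenitor markers summed to 369, 66.5 and 199 CPM in mutants 1, 2 and 3, against 103 to 146 CPM in the controls, and none of them was at 0 in a group. Mutant 2, with the highest Tnfrsf12a, held the lowest cholangiocyte sum of all Fra1hep libraries and the highest hepatocyte sum of the mutants (103428 CPM). The 10 stellate and fibroblast markers summed to 258 to 347 CPM in Fra1hep controls, wholly below the 349 to 441 CPM of Fra2hep controls, again with none at 0. In Fra1hep mutants 1, 2 and 3 they summed to 536, 547 and 412 CPM. Mutants 1 and 2 were nearly tied there and held 37.3 and 65.7 CPM of Tnfrsf12a. Mutant 3 was the lowest of the mutants in both, with 20.3 CPM of Tnfrsf12a. Of the 10 log2 fold changes in Fra1hep 8 were positive and 2 negative. The matrix proteoglycan genes Dcn (log2 fold change 0.86 ± 0.12, adjusted p = 0.0024) and Lum (1.33 ± 0.23, adjusted p = 0.0082) rose. The part of these markers in the rise of Tnfrsf12a was not tested.

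Blood cell markers were also set beside the Fra1hep rises. The 7 T and NK cell markers summed to 5.29 to 5.97 CPM in controls and to 6.29, 11.3 and 8.38 CPM in mutants 1, 2 and 3. These sums did not overlap, and all 5 markers that were tested had positive log2 fold changes (median 0.59). Taken singly, 0 of the 5 had mutants wholly above controls (11.7% of all genes). The largest part of the sum was Cd4, at 2.02 to 3.28 CPM in controls and 2.53 to 4.72 CPM in mutants. The 10 recruited myeloid markers summed to 55.1 to 136 CPM in controls and to 76.9, 132 and 59.4 CPM in the mutants, with 8 of 10 log2 fold changes positive (median 0.94) and 3 with mutants wholly above controls. The B cell markers summed to 10.4 to 34.1 CPM in controls and to 26.3, 52.6 and 18.5 CPM in the mutants. Mutant 2 was the highest of the mutants in these 3 sums. EdgeR, DESeq2 and limma-voom called 0 markers of the T and NK and of the recruited myeloid lists, where 2 and 3 had an unadjusted p under 0.05. None of the markers was at 0 in a group, and their part in the rises of Tnfrsf12a, Tnfrsf1a and Tnfrsf21 was not tested.

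In the Fra2hep strain Tnfrsf12a was at 7.73, 5.58 and 3.94 CPM in controls and at 9.64, 13.4 and 13.6 CPM in mutants. The mutants again lay above all controls, but within a range that ended below the lowest Fra1hep mutant. The fitted ratio was 2.12-fold, a log2 fold change of 1.08 ± 0.39 that was not called (edgeR adjusted p = 0.295). Without Fra2hep control 1 the value was 1.36 (adjusted p = 0.249), and without control 2 it was 1.06 (adjusted p = 0.562), within a range of adjusted p from 0.12 to 0.616 over all alternatives. The stellate and fibroblast sums overlapped here, at 349 to 441 CPM in controls and 294 to 410 CPM in mutants. The difference between the effects, Fra2hep minus Fra1hep, was -1.50 ± 0.54 on the log2 scale and did not pass (adjusted p = 0.672, unadjusted p = 0.0186), so the strains are not shown to differ. The control groups differed by -0.25 ± 0.39 on the log2 scale and overlapped.

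**Figure D3:**
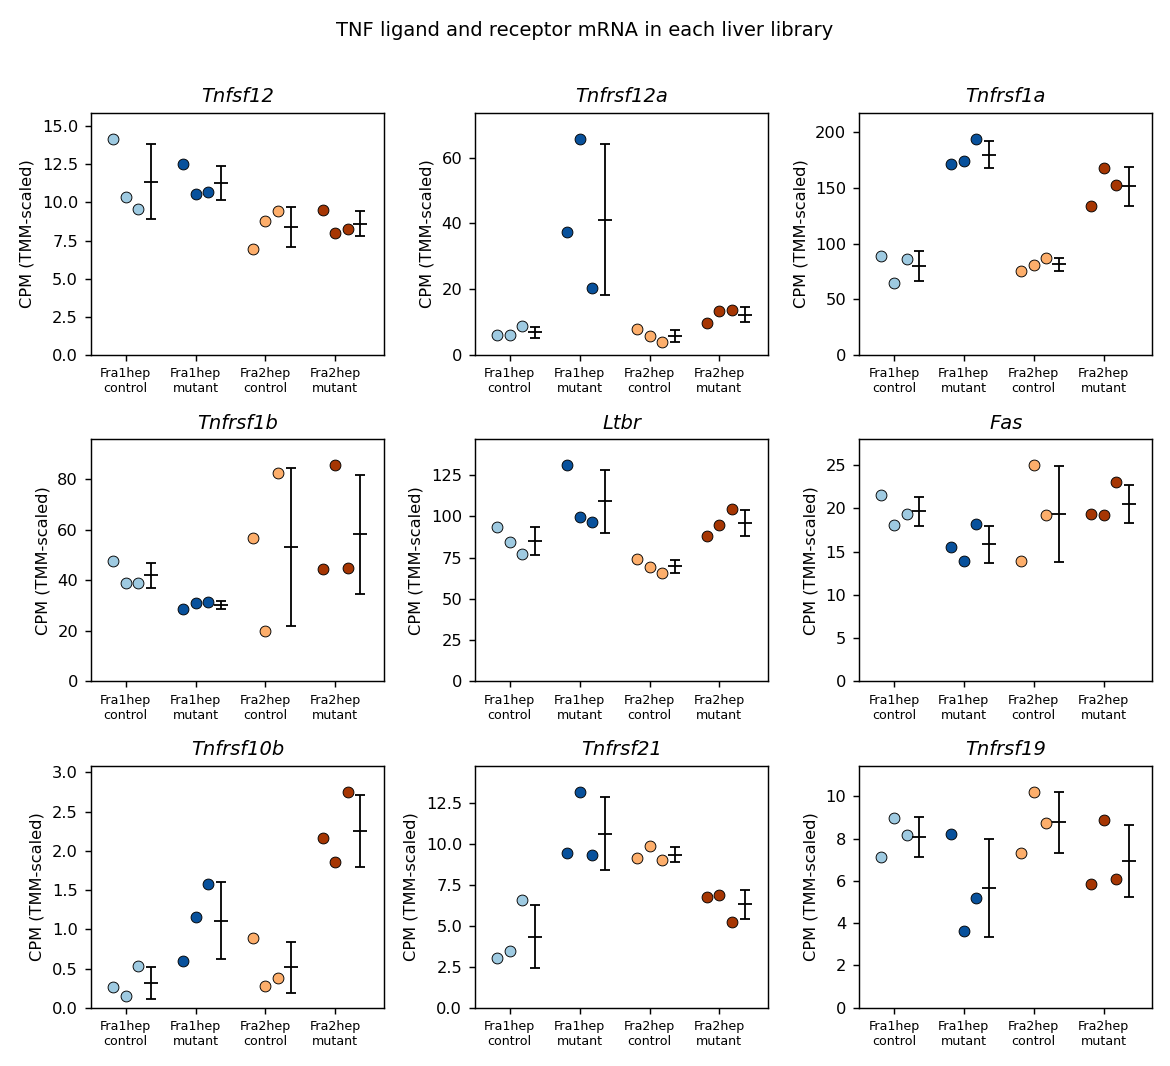
TMM-scaled CPM of the 9 genes in each of the 12 libraries (points, replicates 1 to 3 from left to right) with the group mean and SD (bars), on linear axes that start at 0. The Fra1hep mutants sit at 20.3 to 65.7 CPM for Tnfrsf12a, above all other libraries, and Tnfrsf1a shows mutants clear of controls in both strains.

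Tnfrsf1a, the widely expressed TNF receptor 1 with a death domain (ENSMUSG00000030341.17, GRCm38 chr6:125349362-125362484, plus strand), rose in both strains. In Fra1hep it was at 88.4, 64.5 and 86.3 CPM in controls and at 172, 174 and 194 CPM in mutants. The Fra2hep values were 75.7, 81.0 and 87.1 CPM in controls and 134, 168 and 152 CPM in mutants. Every mutant of either strain lay above all 6 controls, and the Fra2hep controls lay within the range of the Fra1hep controls. The rise was 2.26-fold in Fra1hep (log2 fold change 1.17 ± 0.14, edgeR adjusted p = 0.0007) and 1.86-fold in Fra2hep (0.90 ± 0.14, adjusted p = 0.0106).

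The Fra1hep call for Tnfrsf1a held in all 12 fits that left out 1 library. The Fra2hep call was lost without mutant 2 (0.81, adjusted p = 0.0515) and without mutant 3 (0.89, adjusted p = 0.0513). It held without control 1 (0.85, adjusted p = 0.0372) and without control 2 (0.89, adjusted p = 0.0438), and the adjusted p over all alternatives ran from 6.9e-07 to 0.0515. The difference between the strains' effects was -0.28 ± 0.19 on the log2 scale (adjusted p = 0.887). In Fra1hep the rise of Tnfrsf1a stood beside the higher stellate and T and NK marker sums given above. Of the 6 hepatocyte markers 2 had positive and 4 negative log2 fold changes there, and edgeR called 0. Hnf4a (558 to 648 CPM in controls, 711 to 909 CPM in mutants) and Cps1 (2872 to 2912 and 3624 to 4721 CPM) lay wholly higher in Fra1hep mutants, as did 11.7% of all genes. In Fra2hep the rise of Tnfrsf1a stood beside the lower albumin-led sum, in mice whose Hnf4a, Cps1 and Tat overlapped the controls. The part of these markers was not tested.

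Tnfrsf1b, TNF receptor 2, which lacks a death domain and is known mainly from immune and endothelial cells (GRCm38 chr4:145213463-145246870, minus strand), was called in neither strain. It was at 47.8, 39.1 and 39.1 CPM in Fra1hep controls and at 28.6, 30.9 and 31.5 CPM in mutants. These groups did not overlap, but the log2 fold change of -0.47 ± 0.41 was not called (adjusted p = 0.628). The Fra2hep controls ranged widely, at 56.8, 20.04 and 82.6 CPM, as did the mutants at 44.5, 85.5 and 44.9 CPM, and the log2 fold change was 0.13 ± 0.41 (adjusted p = 0.945). It changed sign without control 2 (-0.26, adjusted p = 0.908) and without mutant 2 (-0.25, adjusted p = 0.929), and was 0.18 without control 1 (adjusted p = 0.922). The 6 Kupffer cell markers, of which none was at 0, summed to 445, 199 and 381 CPM in Fra2hep controls 1, 2 and 3 and to 440, 286 and 483 CPM in the mutants. Control 2 was thus lowest in both Tnfrsf1b and the Kupffer sum, whereas mutant 2 was highest in Tnfrsf1b and lowest of the mutants in the Kupffer sum.

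Ltbr, the lymphotoxin beta receptor that signals to the non-canonical arm of NF-kB (GRCm38 chr6:125306571-125313885, minus strand), showed the smallest difference among the members whose mutants lay above controls in both strains. The Fra1hep values were 93.6, 84.6 and 77.1 CPM in controls and 131, 99.7 and 96.7 CPM in mutants, with mutant 1 apart from the other two. In Fra2hep they were 74.0, 69.3 and 65.8 CPM in controls and 88.4, 95.0 and 104 CPM in mutants. Neither difference was called, with log2 fold changes of 0.36 ± 0.13 (adjusted p = 0.187) and 0.46 ± 0.13 (adjusted p = 0.158). Without Fra2hep control 1 or control 2 the second value was 0.50 (adjusted p = 0.206) or 0.46 (adjusted p = 0.351), and over all alternatives its adjusted p ran from 0.0577 to 0.428.

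Of the members known as death receptors, Fas, the receptor of Fas ligand (GRCm38 chr19:34290666-34327772, plus strand), was not called in either strain. Its levels were 21.5, 18.1 and 19.3 CPM in Fra1hep controls and 15.5, 13.9 and 18.1 CPM in mutants. In Fra2hep the controls held 13.9, 25.0 and 19.2 CPM and the mutants 19.3, 19.2 and 23.1 CPM. Mutants overlapped controls in both strains, and the log2 fold changes were -0.31 ± 0.19 (adjusted p = 0.461) and 0.08 ± 0.19 (adjusted p = 0.922). The second value was -0.11 without Fra2hep control 1 (adjusted p = 0.862) and 0.31 without control 2 (adjusted p = 0.725).

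Tnfrsf10b, the mouse receptor for the death ligand TRAIL (GRCm38 chr14:69767472-69784411, plus strand), was the lowest member and rested on few reads. It had 4, 3 and 10 counts in Fra1hep controls and 11, 22 and 31 in mutants, or 0.26, 0.15 and 0.54 against 0.60, 1.16 and 1.57 CPM. The Fra2hep controls had 16, 5 and 7 counts and the mutants 37, 34 and 53, or 0.88, 0.28 and 0.38 against 2.16, 1.85 and 2.75 CPM. Mutants lay above controls in both strains, in Fra1hep by a margin of 1 count between control 3 and mutant 1. The fitted log2 fold changes of 1.80 ± 0.56 in Fra1hep (adjusted p = 0.111) and 2.12 ± 0.51 in Fra2hep (adjusted p = 0.0898) were not called by edgeR. DESeq2 called both (adjusted p = 0.0492 and 0.0090), and the adjusted p over all alternatives reached 0.308 and 0.278. Without Fra1hep control 3 the Fra1hep value was 2.43 (adjusted p = 0.0854). Without Fra2hep control 1 the Fra2hep value was 2.75 (adjusted p = 0.0591), and without control 2 it was 1.83 (adjusted p = 0.278).

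Tnfrsf21, death receptor 6 (ENSMUSG00000023915.5, GRCm38 chr17:43016555-43089189, plus strand), lay on opposite sides of its controls in the 2 strains. The Fra1hep controls held 3.00, 3.44 and 6.57 CPM and the mutants 9.41, 13.2 and 9.29 CPM. The Fra2hep controls held 9.11, 9.88 and 9.02 CPM and the mutants 6.78, 6.87 and 5.24 CPM. Each Fra1hep mutant was above each of its controls and each Fra2hep mutant below each of its own, a pattern shared by 0.27% of all genes. The Fra2hep controls also lay above all Fra1hep controls and near the lower Fra1hep mutants. This control difference was not called (edgeR adjusted p = 0.866).

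In Fra1hep Tnfrsf21 rose 2.44-fold, a log2 fold change of 1.29 ± 0.27 (edgeR adjusted p = 0.0226). The call was lost without Fra1hep control 1 (1.07, adjusted p = 0.101), control 2 (1.14, adjusted p = 0.0951) or mutant 2 (1.10, adjusted p = 0.074), and the adjusted p over all alternatives ran from 0.0003 to 0.101. As for Tnfrsf12a, this rise stood beside higher stellate and fibroblast marker sums, with means of 294 CPM in Fra1hep controls and 499 CPM in mutants. In Fra2hep these means were 383 and 347 CPM with overlapping groups, so the group means stood in the order of those of Tnfrsf21. The single markers did not all share this order. In Fra2hep 4 of the 10 had positive and 6 negative log2 fold changes. Lum lay wholly higher in Fra2hep mutants (9.97 to 11.7 CPM) than in controls (5.47 to 7.57 CPM), as did 9.31% of all genes. Of the 10 markers DESeq2 called 1, Dcn, in the difference of effects (0.362% of genes lower) and between controls (0.126% higher). EdgeR and limma-voom called 0 there, and the part of these markers was not tested. In Fra2hep the log2 fold change of Tnfrsf21 was -0.57 ± 0.27 and was not called (edgeR adjusted p = 0.454). It was -0.59 without Fra2hep control 1 (adjusted p = 0.506) and -0.53 without control 2 (adjusted p = 0.741). The difference of the effects was -1.86 ± 0.38 (unadjusted p = 0.0004, edgeR adjusted p = 0.26), and it was called by DESeq2 (adjusted p = 0.0018) but by neither edgeR nor limma-voom (adjusted p = 0.185). Between the controls Fra2hep was higher by 1.10 ± 0.27 on the log2 scale, which was not called (edgeR adjusted p = 0.866, DESeq2 adjusted p = 0.081).

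Tnfrsf19, also called TROY, a receptor without a death domain that is known from stem and progenitor cells (GRCm38 chr14:60963875-61046490, minus strand), was called in neither strain. It was at 7.12, 8.99 and 8.18 CPM in Fra1hep controls and at 8.21, 3.63 and 5.18 CPM in mutants. In Fra2hep the controls held 7.34, 10.2 and 8.75 CPM and the mutants 5.84, 8.89 and 6.07 CPM. The groups overlapped in each strain, with log2 fold changes of -0.52 ± 0.28 (adjusted p = 0.395) and -0.34 ± 0.28 (adjusted p = 0.724). Without Fra2hep control 1 the second value was -0.45 (adjusted p = 0.626), and without control 2 it was -0.21 (adjusted p = 0.949).

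Across the 9 members the difference between the strains' effects was called by edgeR in 0, where 0.0071% of all genes were called higher and 0.0284% lower in Fra2hep. An unadjusted p under 0.05 was found for 2 of them, Tnfrsf12a and Tnfrsf21, and for 6.32% of all genes. DESeq2 called 1, Tnfrsf21, lower in Fra2hep as were 0.362% of genes, and limma-voom called 0, as against 0.0213% of genes lower. Between the 2 control groups edgeR, DESeq2 and limma-voom called 0 members, where DESeq2 called 0.126% of genes higher and 0.00739% lower in Fra2hep, and 2 (Tnfsf12 and Tnfrsf21) had an unadjusted p under 0.05, as had 5.35% of all genes. Fra2hep controls lay wholly above Fra1hep controls in 1 member (5.28% of all genes) and wholly below in 2, Tnfsf12 and Ltbr (4.82%).

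The counts for the 6 lists that follow are read against all genes tested, of which DESeq2 called 7.26% in Fra1hep and 3.18% in Fra2hep in either direction, and of which 16.3% and 11.5% had an unadjusted p under 0.05. Of 20 further receptors of the family, 13 were tested and edgeR called 0 in either strain, with 3 at an unadjusted p under 0.05 in Fra1hep and 2 in Fra2hep. Limma-voom called 0 in both strains, and DESeq2 called 0 in Fra1hep and 1 in Fra2hep. The median log2 fold change over the 13 was 0.60 in Fra1hep and 0.15 in Fra2hep, beside 0.01 and -0.01 over all genes. The gene DESeq2 called was Tnfrsf23, a mouse decoy receptor for TRAIL, at 0.28 to 0.61 CPM in Fra2hep controls and 4.20 to 6.89 CPM in mutants (log2 fold change 3.56 ± 0.93, edgeR adjusted p = 0.122, range over alternatives 0.0035 to 0.36). Fits on only the Fra2hep libraries (adjusted p = 0.0135) or without Fra1hep mutant 2 (adjusted p = 0.0424) called it as well. Tnfrsf23 has close copies in Tnfrsf22 and Tnfrsf26, so its counts may be shared with them. In Fra1hep the smallest p values belonged to Tnfrsf11b, the decoy receptor osteoprotegerin (0.85 ± 0.30, adjusted p = 0.164), and Tnfrsf13b, a TNF family receptor found on B cells (1.20 ± 0.43, adjusted p = 0.179, or 1.84 without Fra1hep control 2). The neurotrophin receptor Ngfr came next to Tnfrsf23 in Fra2hep (-0.81 ± 0.32, adjusted p = 0.353).

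Ligands other than TWEAK were scarce. Of 17 listed, 5 passed the filter on low counts, and the 17 together summed to between 5.35 and 16.0 CPM in any library. EdgeR, DESeq2 and limma-voom called 0 of the 5 in either strain, and 0 had an unadjusted p under 0.05. The medians of the 5 were 0.40 in Fra1hep and -0.68 in Fra2hep. Tnfsf10, the ligand TRAIL of Tnfrsf10b, was at 6.59 to 8.80 CPM in Fra2hep controls and 3.86 to 6.23 CPM in mutants (log2 fold change -0.68 ± 0.38, adjusted p = 0.553). The ectodysplasin gene Eda was at 3.52 to 4.37 CPM in Fra2hep controls and 0.62 to 3.44 CPM in mutants (-1.15 ± 0.61, adjusted p = 0.532, or -2.14 without mutant 2). In Fra1hep the B cell factor Tnfsf13b (0.84 ± 0.57, adjusted p = 0.502) and the lymphotoxin subunit Ltb (0.64 ± 0.52, adjusted p = 0.596) had the smallest p values.

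All 30 adaptor and death signalling genes were tested, and edgeR and limma-voom called 0 of them in either strain. In Fra1hep 5 had an unadjusted p under 0.05 and DESeq2 called 2, Map3k5 and Mlkl, and in Fra2hep the counts were 4 and 0. The medians were 0.02 in both strains. Map3k5, the stress kinase ASK1 that binds TRAF2, was at 26.2 to 35.9 CPM in Fra1hep controls and 42.4 to 49.8 CPM in mutants (log2 fold change 0.51 ± 0.13, edgeR adjusted p = 0.054, range over alternatives 0.0115 to 0.164). Mlkl, the effector of necroptosis, was at 4.42 to 5.03 CPM and 10.2 to 15.1 CPM in the same groups (1.42 ± 0.41, edgeR adjusted p = 0.087, range 0.0042 to 0.227). Without Fra2hep control 1 edgeR called Mlkl in Fra1hep (adjusted p = 0.0042) and in Fra2hep (1.66, adjusted p = 0.015). In Fra2hep the smallest p values were those of Tank (0.62 ± 0.20, adjusted p = 0.206) and Traf3 (0.72 ± 0.23, adjusted p = 0.212), a TRAF-binding protein and an adaptor that holds back the non-canonical arm of NF-kB.

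Among 17 NF-kB subunits and regulators, all tested, 1 rose in Fra1hep. It was Tnfaip3, the ubiquitin-editing protein A20 that restrains NF-kB downstream of TNF receptor 1, at 1.24 to 2.80 CPM in controls and 6.35 to 11.1 CPM in mutants. The log2 fold change was 1.93 ± 0.34 (edgeR adjusted p = 0.0095), and the call held in each fit that left out 1 library, with adjusted p up to 0.0377. In Fra2hep the controls of Tnfaip3 (2.34 to 4.64 CPM) enclosed the mutants (4.09 to 4.58 CPM), with a log2 fold change of 0.17 ± 0.33 (adjusted p = 0.909), or -0.09 without Fra2hep control 2. The difference between the strains was -1.76 ± 0.48 and was not called (adjusted p = 0.478). One of the 2 RefSeq windows of Tnfaip3 held the AP-1 motif, 136 bases before the RefSeq start, where 6.75% of all promoters had a match. This window lies on the minus strand at chr10:19015411-19015660, and 110 of its bases lie in GENCODE exons. The GENCODE gene starts at 19015657, so the match lies inside the annotated gene. Tnfaip3 was the only gene outside the members whose windows are reported, and the match was not tested for binding.

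Over the 17 regulators 7 had an unadjusted p under 0.05 in Fra1hep, DESeq2 called 2 (Nfkbia lower, at -0.60, and Tnfaip3 higher) and limma-voom 1 (Tnfaip3), with a median of 0.36. In Fra2hep edgeR and limma-voom called 0 of them, 4 had an unadjusted p under 0.05, DESeq2 called 1 (Nfkbib), and the median was 0.18. Nfkbib, an inhibitor subunit of NF-kB, was at 11.98 to 21.6 CPM in Fra2hep controls and 26.0 to 37.0 CPM in mutants (log2 fold change 0.87 ± 0.24, edgeR adjusted p = 0.138, range over alternatives 0.0315 to 0.35). Tnip1, a partner of A20, had a log2 fold change of 0.89 ± 0.32 in Fra2hep (adjusted p = 0.298).

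Of 18 genes that NF-kB is known to switch on, 15 were tested and edgeR and limma-voom called 0 in either strain, with 2 and 1 at an unadjusted p under 0.05. The medians were 0.63 in Fra1hep and 0.03 in Fra2hep, and the 18 summed to 338 to 392 CPM in Fra1hep controls and 331 to 366 CPM in mutants. DESeq2 called 1 in Fra1hep, the monocyte chemokine Ccl2, and 0 in Fra2hep. Ccl2 was at 0.15 to 0.65 CPM in Fra1hep controls and 1.86 to 8.74 CPM in mutants (log2 fold change 3.40 ± 0.98, edgeR adjusted p = 0.0889, range over alternatives 0.0041 to 0.273). EdgeR called it without Fra2hep control 2 (adjusted p = 0.036) or control 3 (adjusted p = 0.0485), and without Fra1hep mutant 2 the log2 fold change of Ccl2 was 2.31 (adjusted p = 0.273). The other NF-kB targets with the smallest p values were Ier3 in Fra1hep (1.07 ± 0.43, adjusted p = 0.228), and the neutrophil chemokine Cxcl2 (2.50 ± 0.80, adjusted p = 0.221) and the cytokine Il1b (1.27 ± 0.64, adjusted p = 0.493) in Fra2hep. Cxcl2 in Fra2hep was 1.57 without mutant 1 and 3.57 without control 3, and Il1b was 2.26 without control 1.

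Fas and Tnfrsf10b are also known as targets of p53, and 16 further p53 targets were counted, all tested. EdgeR and limma-voom called 0 of them in either strain, while 6 in Fra1hep and 5 in Fra2hep had an unadjusted p under 0.05. DESeq2 called 1 in Fra1hep, the BH3-only gene Pmaip1, and 2 in Fra2hep, Bbc3 and Sesn1. Pmaip1 had a log2 fold change of 1.70 ± 0.52 in Fra1hep (edgeR adjusted p = 0.107, range over alternatives 0.0369 to 0.299). Without Fra1hep control 3 edgeR called Pmaip1 (2.52, adjusted p = 0.0369) and the RNA-binding p53 target Zmat3 (1.43, adjusted p = 0.0301). Bbc3, another BH3-only gene (-1.39 ± 0.43, adjusted p = 0.203, range 0.04 to 0.578), and Sesn1, a stress-induced sestrin (-0.48 ± 0.13, adjusted p = 0.146, range 0.0477 to 0.392), both had negative values in Fra2hep. The cyclin gene Ccng1 had values of 0.73 ± 0.26 in Fra1hep (adjusted p = 0.171) and 0.75 ± 0.26 in Fra2hep (adjusted p = 0.259). The medians over the 16 were 0.16 and 0.06.

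**Figure D4:**
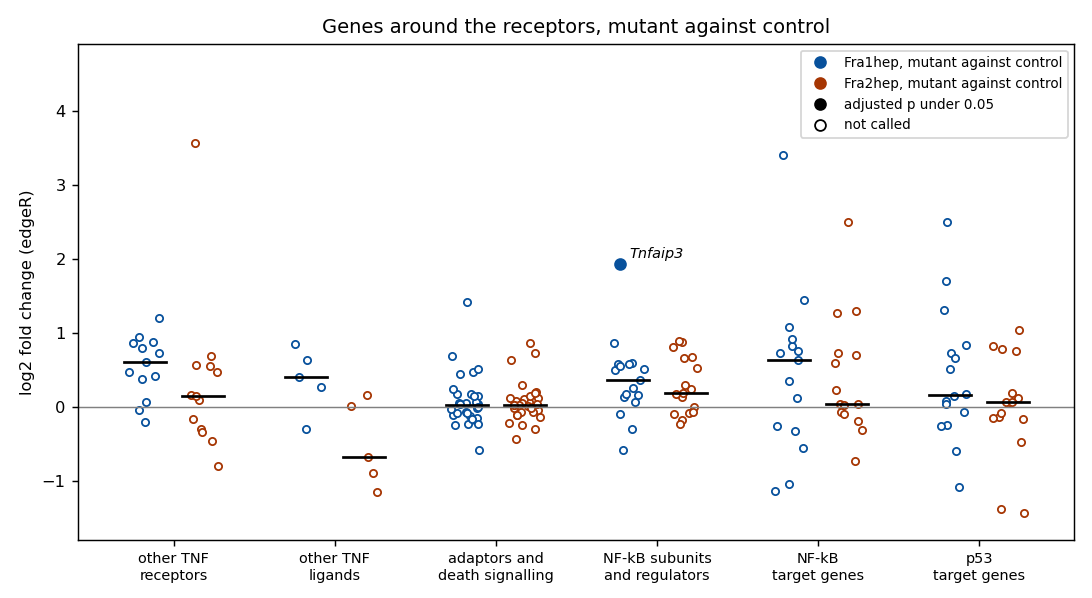
Log2 fold changes of mutants against controls for the tested genes of 6 lists around the receptors, in Fra1hep (blue) and Fra2hep (brown), with black bars at the medians and filled points for an adjusted p under 0.05. Tnfaip3 in Fra1hep, at 1.93, is the one filled point.

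Ranked over 12781 other protein-coding genes by the Pearson correlation of log2 CPM with Tnfrsf12a over the 12 libraries, the 5 most alike were Cdc42se1 (r = 0.959), F11r (0.957), Lmna (0.951), Plxna3 (0.946) and Uba2 (0.946). These correlations describe libraries that fall into 4 groups and share the strain and mutant differences, and they carry no test. Cdc42se1, an effector of the small GTPase Cdc42, was at 18.9 to 22.0 CPM in Fra1hep controls and 60.1 to 69.6 CPM in mutants, and at 15.8 to 24.1 against 25.9 to 40.1 CPM in Fra2hep. F11r, a tight junction adhesion molecule, was at 83.9 to 88.7 against 189 to 239 CPM in Fra1hep and at 60.1 to 91.3 against 95.0 to 142 CPM in Fra2hep. The nuclear lamina gene Lmna held 44.5 to 62.0 against 106 to 162 CPM in Fra1hep and 31.5 to 39.8 against 56.2 to 72.4 CPM in Fra2hep. These 3 genes were called in Fra1hep and had Fra2hep mutants wholly above controls. In Fra2hep edgeR did not call them with all libraries, but called Cdc42se1 in 2 and Lmna in 1 of 12 fits that left out 1 library. DESeq2 called all 3 there (adjusted p = 0.0037, 0.0389 and 0.0026 in the order given), whereas its adjusted p for Tnfrsf12a was 0.12. Plxna3, a semaphorin receptor, was also called in Fra1hep (2.86 ± 0.43, adjusted p = 0.0031, or 2.25 without Fra1hep mutant 2), and its Fra2hep mutants lay above controls without a call (0.90 ± 0.42, adjusted p = 0.45). Uba2, a subunit of the SUMO-activating enzyme, was not called in Fra1hep (0.29 ± 0.10, adjusted p = 0.143).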

How the data were processed

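Gene counts for 12 liver libraries were used as the authors deposited them, whole-number counts per gene that were not normalized. GRCm38 (mm10) is the build, and RSEM, STAR 2.6.1a, DESeq2 1.22.2 and bedtools 2.27.1 are the programs, named in the submitters' processing notes. How reads shared between genes were counted, with which program and strand setting, was not given in the sources used here. Libraries were stranded and polyA-selected, per the labels' protocols. Groups came from the sample titles. Chi-square tests of counts found no pair of replicates within sampling noise.

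Genes were filtered by group with filterByExpr, scaled by TMM and fitted as 4 group means with edgeR 4.0.16 (glmQLFit robust, glmQLFTest) in R 4.3.3. Tests were two-sided with Benjamini-Hochberg adjustment over 14076 genes. Standard errors came from the test statistic. CPM per kb used the union of GENCODE M21 exons, and gene coordinates are from the same annotation (55240 of 55421 identifiers matched without their version). Each choice was changed alone: DESeq2 1.42.0 or limma-voom (limma 3.58.1) as the test, RLE or no scaling, no filter or 1 CPM in 3 libraries, a fit on the 6 libraries of a comparison, a replicate block, and every library left out in turn.

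The members and lists were chosen with earlier results of these data known. Named genes were the members, Fosl1 and Fosl2, up to 4 called genes per list and strain, 2 genes of smallest p where none was called, and the 5 genes most correlated with Tnfrsf12a. Genes called by DESeq2 alone are named where a count of 5 or fewer falls outside that rule. On simulated data for the Fra1hep contrast (13933 genes), edgeR recovered 83.6% of 61 genes changed 4-fold and 32.8% of 58 changed 2-fold. It recovered 2.47% of 81 genes changed 1.5-fold, and 2 of its 74 calls were false.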

Additional observations from a re-analysis of the deposited data

Results flagged for a closer look

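Tnfrsf21 drew attention because all Fra1hep mutants lay above their controls and all Fra2hep mutants below theirs. The difference of the effects, Fra2hep minus Fra1hep, was -1.86 on the log2 scale (edgeR adjusted p = 0.26, DESeq2 adjusted p = 0.0018, range over all alternatives 0.0018 to 0.628). The strains' controls also lay apart, at 4.34 ± 1.94 CPM in Fra1hep and 9.34 ± 0.48 CPM in Fra2hep (SD, n = 3 each). EdgeR did not call this control difference (adjusted p = 0.866). Group means of the summed stellate and fibroblast markers stood in the same order as those of Tnfrsf21. Of the 10 single markers 4 had positive and 6 negative log2 fold changes in Fra2hep. The part of these markers was not tested.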

How the results depend on the processing

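Tnfrsf12a and Tnfrsf1a kept their Fra1hep calls under every alternative run. The cause of the shifts below was not tested. DESeq2 called 1021 genes in Fra1hep and 448 in Fra2hep, against 540 and 150 by edgeR. Without a scaling factor 674 genes were higher in Fra1hep, against 408, and under the replicate block 83 were lower, against 132. The difference of effects had 69 calls by DESeq2, 9 with no filter and 0 to 13 without 1 library, against 5, and the control difference 18, 3 and 0 to 1, against 0. In Fra2hep 90 genes were called with only the 6 libraries compared and 98 with the replicate number as a block. Deviations of same-numbered libraries had correlations from -0.121 to 0.056, within the range of unlike numbers (-0.142 to 0.107). These values cannot exclude pairing by litter or cage, since the deviations within each group of 3 sum to 0. Under the block Tnfrsf21 in Fra1hep had a log2 fold change of 1.35 (adjusted p = 0.0556), and with only 6 libraries 1.29 (adjusted p = 0.1). Its strain difference was -1.85 in DESeq2 (adjusted p = 0.0018).

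Leaving out 1 library gave 267 to 582 called genes in Fra1hep (267 without control 1, 317 without control 2, 349 without control 3) and 53 to 184 in Fra2hep (53 without mutant 3, 56 without mutant 2, 59 without control 3, 76 without control 2, 95 without mutant 1). Over the same fits Tnfrsf1a in Fra2hep ran from 0.81 to 0.98 and Tnfrsf21 in Fra1hep from 1.07 to 1.70. Values near 0 that changed sign were Tnfsf12 in Fra1hep (-0.14 to 0.16), in Fra2hep (-0.084 to 0.13) and in the difference (-0.13 to 0.16), Tnfrsf1b in Fra2hep (-0.26 to 0.60) and between controls (-0.13 to 0.73), Fas in Fra2hep (-0.11 to 0.31) and between controls (-0.24 to 0.17), Tnfrsf1a between controls (-0.10 to 0.11), Tnfrsf10b in the difference (-0.32 to 0.95), and Tnfrsf19 in the difference (-0.061 to 0.54) and between controls (-0.011 to 0.23). So did Fosl1 in Fra2hep (-1.50 to 1.32), Fosl2 in Fra1hep (-0.064 to 0.22) and Tnfaip3 in Fra2hep (-0.088 to 0.32). Tnfsf12 in Fra1hep also turned to 0.14 without a scaling factor, 0.017 in limma-voom and 0.0018 with the replicate block, and its strain difference to -0.053 without a scaling factor. Leaving the scaling factor out moved the median of all genes in Fra1hep from 0.01 to 0.15. Tnfrsf10b between controls was too low to be tested on the 6 control libraries alone. In the simulation most genes of 2-fold change were missed. It planted fewer changed genes than were called in Fra1hep, so that share may not carry over to these data.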
